A study of Homo sapiens with 12 samples.

Results

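CCL22, CCL17 and CX3CL1 are 3 chemokine genes that lie side by side on the long arm of chromosome 16. They were taken as the rows of the deposited gene count table whose Ensembl identifiers carry these names in GENCODE 29 (ENSG00000102962, ENSG00000102970 and ENSG00000006210), 3 of 58735 genes. The libraries came from the human monocytic leukaemia line THP-1, labelled as macrophages, which received either a miR-122-5p mimic, a synthetic copy of that microRNA, or a control mimic (sequence not given in the sources used here) at 30 nM with the transfection reagent RNAimax for 24 h. Both groups were then rested and given lipopolysaccharide (LPS), a bacterial cell wall component sensed by TLR4, for 4 h, so no group without LPS and none without a mimic enters these comparisons. Each group had 6 libraries, all from 1 cell line. The labels do not say whether the 6 were separate cultures. Every p-value therefore reflects variation among these libraries alone, part or all of which can be technical. The stated purpose was to learn how exosomal miR-122-5p affects immune regulation.

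Chemokines are small secreted proteins that guide leukocytes along a gradient. CCL22 (macrophage-derived chemokine) and CCL17 (thymus and activation-regulated chemokine) both bind the receptor CCR4, carried by T helper 2 and regulatory T cells and by skin-homing T cells, and both are known products of macrophages and dendritic cells. CX3CL1 (fractalkine) is made as a membrane protein whose chemokine domain sits on a mucin stalk, is shed by the proteases ADAM10 and ADAM17, and binds CX3CR1 on monocytes, natural killer cells and T cells.

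In the hg38 build the genes are annotated as protein-coding on the forward strand, in the order CCL22 (chr16:57358772-57366190), CX3CL1 (chr16:57372458-57385048) and CCL17 (chr16:57404767-57416062). The gap between CCL22 and CX3CL1 is 6.267 kb and that between CX3CL1 and CCL17 is 19.718 kb. No exon of another annotated gene overlaps their exons. The sequence of the mimic's natural counterpart, mature miR-122-5p (RefSeq, GRCh38.p14), is shown with its seed, bases 2 to 8, in capitals, because it defines which stretches of these transcripts could pair with it. The CX3CL1 and CCL22 stretches that pair best follow, read from GENCODE 29 transcripts, with the matched bases in capitals.
hsa-miR-122-5p: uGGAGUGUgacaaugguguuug
CX3CL1, 7mer-m8 in the 3′ UTR: aggtgctaggaACACTCCttcacagat
CCL22, first 6mer in the 3′ UTR: cctttcttccccCACTCCctttttttt
CCL22, second 6mer in the 3′ UTR: aggaggccatttCACTCCctgaaccca

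The CX3CL1 site lies at chr16:57384583-57384589 and matches all 7 seed bases. The 3 transcripts of CX3CL1 that hold it, of 4 annotated, each have 3 further 3′ UTR matches to only 6 seed bases (CACTCC) and 1 in the coding sequence. One of the transcripts also has 2 matches to CACTCCA in its 5′ UTR. CCL22 has 2 such 6-base matches in its 3′ UTR of 2602 bases, at chr16:57364472-57364477 and chr16:57365900-57365905, and 1 in its coding sequence. CCL17 has 0 in either of its 2 annotated transcripts. No 8mer (ACACTCCA) was found in any of the 3 genes. A match is a description of the sequence and not evidence of binding.

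The promoter of CCL22 is shown because this gene carried most of the counts of the cluster. The 239 bases before its annotated start (chr16:57358533-57358771, forward strand, RefSeq, GRCh38.p14) carry, in capitals, a pair of overlapping matches to the 10-base NF-kB consensus.
CCL22 promoter: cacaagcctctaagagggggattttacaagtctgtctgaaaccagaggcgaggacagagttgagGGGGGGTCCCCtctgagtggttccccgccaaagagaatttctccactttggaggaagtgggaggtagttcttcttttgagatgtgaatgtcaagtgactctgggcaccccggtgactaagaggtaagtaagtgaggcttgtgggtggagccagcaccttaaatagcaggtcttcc

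NF-kB is the transcription factor family activated by TLR4. The same consensus, searched on both strands, occurs in 11.3% of the 35116 promoter windows of 300 bases. The STAT6 motif (TTC and GAA with 4 bases between) was not found in the CCL22 window on either strand, and 6.44% of promoters hold it. The same was true of TTCNNNGAA, bound by other STAT factors (7.66% of promoters), TGANTCA of AP-1 (7.71%), the interferon response core (3.57%) and TATAAA (11.5%).

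CCL22 was clearly expressed and rose with miR-122-5p. Its normalised count (CPM, counts scaled to library size with TMM factors) in libraries 1 to 6 of the miR-122-5p group was 73.9, 66.9, 56.8, 63.5, 64.2 and 74.7. In control libraries 1 to 6 it was 22.0, 26.8, 24.1, 25.0, 26.0 and 25.2. Every miR-122-5p library was above every control library, and the lowest of them was over 2 times the highest control. The means were 66.7 ± 6.78 CPM after the miR-122-5p mimic and 24.8 ± 1.69 CPM in the controls (SD, n = 6 in each group), from 13575 and 5090 counts. The log2 fold change, miR-122-5p over control, was 1.42 ± 0.08 (SE; edgeR quasi-likelihood test, adjusted p = 4.62e-12, Benjamini-Hochberg over 15471 tested genes). As background, 24.3% of all tested genes were called higher at an adjusted p under 0.05 and 26.2% lower, and for 13.4% every miR-122-5p library was above every control (16.1% below). In bulk RNA, more cells that make CCL22 and more CCL22 RNA per cell cannot be told apart.

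**Figure D1:**
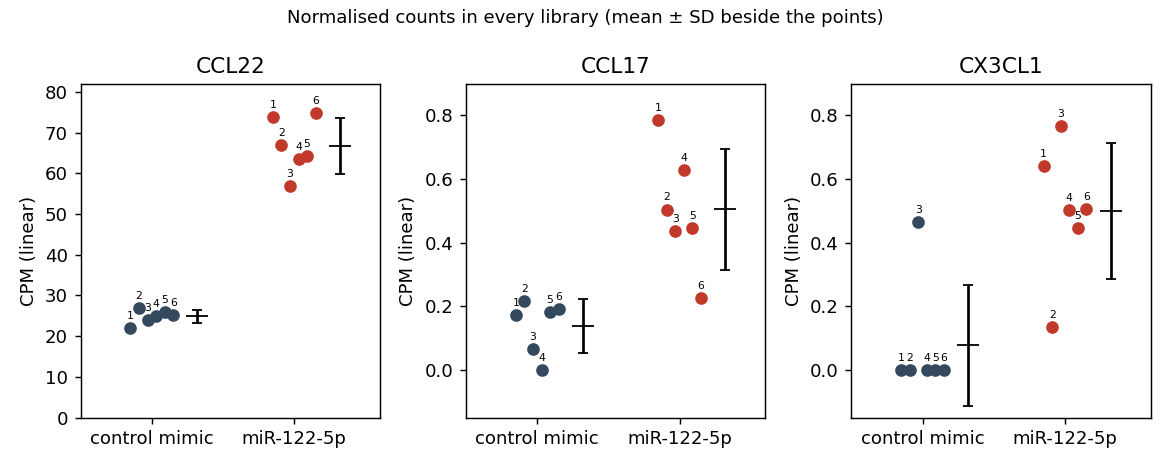
CPM of CCL22, CCL17 and CX3CL1 in each of the 12 libraries (points, numbered by library) with the mean ± SD of each group of 6 beside them; the vertical scales differ. CCL22 and CCL17 do not overlap between groups, while control library 3 lies among the miR-122-5p libraries for CX3CL1.

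CCL17 was near the limit of detection. Its counts in miR-122-5p libraries 1 to 6 were 27, 15, 16, 20, 16 and 8, and in control libraries 1 to 6 they were 6, 7, 2, 0, 6 and 7. The groups did not overlap, although the lowest miR-122-5p library (0.225 CPM) was close to the highest control (0.218 CPM). The means were 0.505 ± 0.190 and 0.139 ± 0.0856 CPM (SD, n = 6), a difference of 0.366 CPM. A two-sided exact permutation test gave p = 0.00216, the lowest value possible with 6 libraries a group. Among all 30198 genes with any count, 6.95% had every miR-122-5p library above every control. The gene did not pass the low-count filter. In a fit without that filter its log2 fold change was 1.86 ± 0.63 (SE; edgeR, adjusted p = 0.0157, with 13% of genes called higher). That call ended without miR-122-5p library 1 (1.69, adjusted p = 0.0599) and when the GC slope of each library entered the model (1.77, adjusted p = 0.481). Over all settings its adjusted p ran from 0.00296 to 0.481. The GC slope, described with the libraries, is the trend of a library's values with transcript GC content. With it in the model 7.22% of all tested genes were called higher and 12.2% lower. These shares are from the filtered fit of 15471 genes, which leaves out CCL17, and not from the fit that gave its values.

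CX3CL1 was detected in few control libraries. The counts in miR-122-5p libraries 1 to 6 were 22, 4, 28, 16, 16 and 18. In the control libraries they were 0 in 5 of 6 and 14 in control library 3; a count of 0 allows up to 3 counts, which is 0.0775 to 0.0935 CPM in those 5 libraries. The groups therefore overlapped through control library 3 (0.465 CPM), which exceeded miR-122-5p libraries 2 (0.134 CPM) and 5 (0.446 CPM). The means were 0.4996 ± 0.213 and 0.0776 ± 0.190 CPM (SD, n = 6), a difference of 0.422 CPM (two-sided exact permutation p = 0.00649). Pooled over libraries, 104 counts against 14 gave a 7.47-fold higher level with miR-122-5p. Without control library 3 the controls held 0 counts. A floor of 3 counts over the group then gave a 29.7-fold ratio, if each count is 1 fragment. That ratio leaves out the only control library with counts, so it is no lower bound on the change.

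CX3CL1 passed the low-count filter mainly through the miR-122-5p libraries, and edgeR gave a log2 fold change of 2.76 ± 0.83 (SE; adjusted p = 0.00846). With DESeq2 the call ended (2.72 ± 1.40, SE; adjusted p = 0.0907, with 25.5% of genes called higher), as it did with the GC slope covariate (1.24, adjusted p = 0.655); over all settings the adjusted p ran from 1.58e-05 to 0.655. All 7 of its counts above 0 were even. Over all genes 68.3% of values from 1 to 10 and 57.2% of those from 11 to 50 were even, against 50.03% of those from 201 to 1000, and the value 2 occurred 18968 times against 8914 for the value 1. Whether reads or read pairs were counted is not given in the sources used here, so the number of independent fragments behind low counts may be smaller than the counts. The 29.7-fold ratio would then be lower. With all counts halved, an alternative chosen after the data were seen, CX3CL1 was at 2.74 and CCL17 at 1.77 on the log2 scale, with adjusted p of 0.00395 and 0.0111 (edgeR).

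Levels of the 3 genes can be compared only per length. The length used joins all annotated exons of a gene. For CX3CL1 it was 5983 bases, though 2 of its transcripts have 3321 and 3313 bases, so its level per kb may be understated. CCL22 stood at 22.8 ± 2.31 CPM per kb of exon with miR-122-5p and 8.48 ± 0.577 in controls (SD, n = 6). CCL17 stood at 0.814 ± 0.306 and 0.224 ± 0.138, and CX3CL1 at 0.0835 ± 0.0356 and 0.0130 ± 0.0318 CPM per kb. The order CCL22, CCL17, CX3CL1 held in both groups, but the control ranges of CCL17 and CX3CL1 overlapped. Among 46 chemokine genes, CCL22 ranked 20 in the controls and 14 with miR-122-5p by mean level per kb. In the controls it differed by less than the SD of its neighbour above, CXCL9 (9.53 ± 1.97), and with miR-122-5p by less than that of CCL1 (27.3 ± 14.9); it exceeded the neighbours below, CXCL12 (5.47 ± 0.665) and CXCL16 (18.5 ± 2.00), by more than either SD. These neighbours were chosen by their place in the order.

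Plain ratios between the genes within a library do not depend on how libraries are scaled. Here a prior count, itself scaled to library size, was added to each gene, so at low counts some dependence remains. The log2 ratio of CCL22 to CCL17 (prior count 2) was 6.96 ± 0.571 with miR-122-5p and 7.15 ± 0.867 with control (SD, n = 6), a difference of -0.19 (two-sided exact permutation p = 0.675, the same after adjustment over 3 pairs). For CCL22 over CX3CL1 the difference was -1.18 (exact p = 0.0693, 0.208 adjusted) and for CCL17 over CX3CL1 -0.98 (exact p = 0.225, 0.338 adjusted). Unequal changes of the 3 genes were thus not detectable at these counts, which does not show that they changed alike. The CCL22 to CX3CL1 difference passed with a prior count of 0.5 (-2.71, exact p = 0.0152, 0.0455 adjusted) or without control library 3 (-1.71, unadjusted exact p = 0.00433), and the CCL17 to CX3CL1 difference without that library (-1.61, unadjusted exact p = 0.0216).

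Within a group of 6 libraries the 3 genes did not detectably deviate together. Over 6 relations (3 pairs in 2 groups, log2 CPM), Pearson's r ran from -0.270 to 0.105 (exact permutation p from 0.667 to 0.971, 0.971 adjusted) and Spearman's rho from -0.393 to 0.714 (exact permutation p from 0.136 to 1, 0.817 to 1 adjusted). The rho of 0.714 was that of CCL22 and CCL17 in the controls. Without the 2 libraries farthest from the median of the first gene, r ran from -0.858 to 0.713 for the 5 relations that could be computed. Relations with CX3CL1 in the controls rest on 1 library.

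By a rule that took the smallest root mean square difference between mean-centred log2 CPM profiles over the 12 libraries, the tested genes most like CCL22 were SNRNP25, a component of the minor spliceosome (0.153), COL11A2, a collagen chain (0.159), and PRADC1 (0.164). Their log2 fold changes were 1.19 ± 0.09, 1.45 ± 0.09 and 1.27 ± 0.10 (SE). Those most like CCL17 were AC145098.1 (0.388), the kinetochore gene SPC24 (0.464) and the transcription factor TFAP4 (0.469), with fold changes of 2.11 ± 0.39, 1.87 ± 0.26 and 1.76 ± 0.47. Those most like CX3CL1 were ZNF295-AS1 (0.869), the neurotrophic ligand NRTN (0.885) and the spindle checkpoint kinase BUB1B (0.906), so its profile had no close match. AC145098.1 is annotated as antisense and overlaps other genes over 8.06% of its exons, as ZNF295-AS1 does over 8.66%, so their counts are uncertain if strand was not used.

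The other chemokines mostly went the other way. Of 43 further chemokine genes in a list from general knowledge, 27 passed the low-count filter. Of these 15 were lower, 4 were higher and 8 were not called, where 26.2% and 24.3% of all tested genes were called lower and higher. The median of their log2 fold changes was -0.40, against 0.01 over all tested genes. The monocyte attractants CCL7 and CCL2 fell, with log2 fold changes of -4.29 ± 0.19 and -3.74 ± 0.20 (SE; edgeR adjusted p = 1.29e-13 and 1.54e-12), as did CXCL10, a CXCR3 ligand (-3.31 ± 0.18, 4.17e-12). The 4 higher genes were CCL20, a CCR6 ligand (0.25 ± 0.08), CCL24, an eosinophil attractant (0.33 ± 0.10), CCL28, a mucosal chemokine (0.56 ± 0.18), and CCL3 (0.42 ± 0.16), the last named after its values were seen and uncertain because other genes overlap 74.6% of its exons. Their groups overlapped. Thus in this fit CX3CL1 and CCL22 had the largest fold changes upward among tested chemokine genes, followed by CCL21 (1.18 ± 0.54, adjusted p = 0.0767, not called), also named after its values were seen. The call of CCL24 ended once trends with transcript GC content and length were removed (0.03, adjusted p = 0.852), a correction under which 23.3% of genes were called higher and 23.5% lower, and, with that of CCL28, under the GC slope covariate (0.14, adjusted p = 0.682, and 0.52, adjusted p = 0.335).

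**Figure D2:**
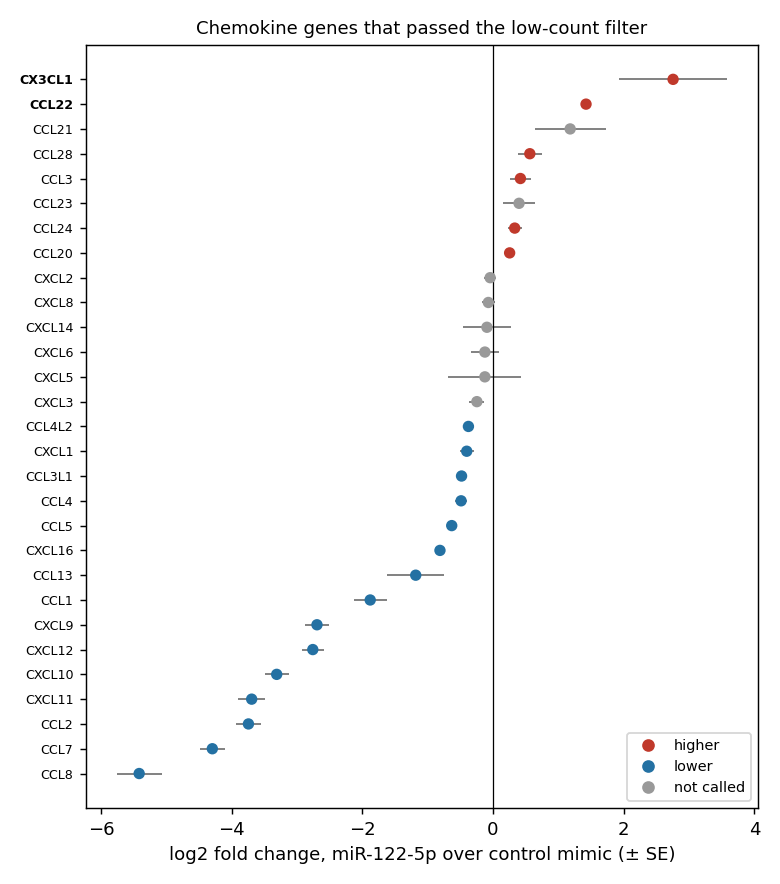
Log2 fold change (miR-122-5p over control, ± SE, edgeR) of each chemokine gene that passed the low-count filter, with CCL22 and CX3CL1 in bold; red points were called higher, blue lower and grey not called. CX3CL1 (2.76) and CCL22 (1.42) stand above the other called genes, and 15 genes were called lower. CX3CL1 passed the filter mainly through the miR-122-5p libraries, and CCL17 did not pass it.

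Receptors of the 3 ligands were sparse. CX3CR1, the receptor of CX3CL1, was at 3.05 ± 0.532 CPM with miR-122-5p and 6.01 ± 0.560 with control (SD, n = 6), without overlap, and fell by 0.98 ± 0.14 on the log2 scale (SE; edgeR adjusted p = 6.11e-06). CCR4, the receptor of CCL22 and CCL17, had 4 counts in all libraries together, and the scavenging receptors ACKR1 and ACKR2 had 2 and 17, so none of these 3 was tested.

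All 7 listed genes of shedding and cleavage were tested; 5 were lower and 2 higher (median -0.29), where 26.2% of all tested genes were lower and 24.3% higher. DPP4, a peptidase that trims CCL22, fell by 1.31 ± 0.10 (SE; edgeR adjusted p = 7.07e-10), from 19.9 ± 1.87 to 8.03 ± 1.03 CPM (SD, n = 6). The lysosomal protease CTSS, which can also cleave CX3CL1, fell by 1.09 ± 0.07 (1.19e-10). TIMP3, the inhibitor of ADAM10 and ADAM17, rose by 0.71 ± 0.07 (2.53e-08), from 3305 ± 312 to 5420 ± 357 CPM (SD, n = 6). The sheddases themselves, ADAM10 and ADAM17, changed by -0.29 ± 0.07 and -0.35 ± 0.07, and the iRhom genes RHBDF1 and RHBDF2, which escort ADAM17, by 0.44 ± 0.08 and -0.22 ± 0.09. With GC and length trends removed, ADAM10 turned to 0.05 (adjusted p = 0.465), and the calls of ADAM17 (-0.03, 0.704) and RHBDF1 (0.06, 0.415) ended. The RHBDF2 call ended without miR-122-5p library 3, 4 or 5 or control library 2, 3 or 4 (adjusted p from 0.0545 to 0.112), and with scaling by library totals (0.0676). Alternative settings that kept all libraries put RHBDF2 at -0.60 to -0.18. Over all settings the adjusted p of these 4 was at most 0.766, 0.704, 0.523 and 0.112.

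CCL22 and CCL17 belong to the genes that interleukin 4 and interleukin 13 induce through STAT6 in macrophages. Of 23 other genes of that programme 16 were tested; 2 were higher, 7 lower and 7 not called (median -0.22), beside 24.3% higher and 26.2% lower among all tested genes. PPARG, a lipid-sensing nuclear receptor, rose by 0.66 ± 0.08 (SE; edgeR adjusted p = 6.15e-07), with CCL24 as the other higher gene. The transcription factors IRF4 (-1.40 ± 0.16) and KLF4 (-0.68 ± 0.09) and the interleukin 13 receptor chain IL13RA1 (-0.79 ± 0.07) fell (adjusted p = 2.42e-07, 2.10e-06 and 1.06e-08). After the GC and length correction 1 of the list was higher and 11 lower, with 23.3% and 23.5% over all genes. STAT6 itself was not called (-0.11 ± 0.07, adjusted p = 0.208); it is named here as the factor of the list, after its values were seen.

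GM-CSF is known to raise CCL17 in monocytes and macrophages through IRF4. Of 11 genes of that axis, 4 were higher, 5 lower and 2 not called (median 0.19), where 24.3% and 26.2% of all tested genes were higher and lower. CSF2, which encodes GM-CSF, rose by 1.06 ± 0.17 (SE; edgeR adjusted p = 2.29e-05), from 3.90 ± 1.21 to 8.13 ± 1.07 CPM (SD, n = 6) without overlap. PIM1, a STAT5 target, rose by 0.40 ± 0.07, while the histone demethylase KDM6B was at 0.26 ± 0.08 and turned to -0.08 without the GC and length trends (adjusted p = 0.354, with a range of 0.00219 to 0.787 over all settings). The shared receptor chain CSF2RB (-1.11 ± 0.07) and the receptor-bound kinase JAK2 (-2.26 ± 0.13) fell (5.48e-11 and 8.09e-12), along with IRF4. The ligand gene and its receptor chain thus went in opposite directions in these libraries.

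NF-kB genes went in both directions. Of 16 tested, 4 were higher, 5 lower and 7 not called (median 0.03), counts near the 24.3% and 26.2% of all tested genes. REL, CHUK and NFKBIZ were at -0.73 ± 0.10, -0.44 ± 0.09 and -0.34 ± 0.08, and MAP3K14, NFKBIB and NFKB2 at 0.49 ± 0.14, 0.37 ± 0.08 and 0.28 ± 0.07 (SE). After the GC and length correction 0 of the list were called higher, where 23.3% of all tested genes were. NFKB2 turned to -0.08 (edgeR adjusted p = 0.399), and the calls of MAP3K14 (0.25, 0.195), NFKBIB (0.07, 0.417) and CHUK (-0.08, 0.427) ended. Those of REL (-0.31, adjusted p = 0.118) and NFKBIZ (-0.19, 0.336) ended with the GC slope covariate. Exons of other genes overlap 43.3% of those of REL.

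CCL22 and CCL17 are also markers of maturing dendritic cells. Of 16 other genes of that maturation 15 were tested; 8 were lower, 3 higher and 4 not called (median -0.84). Over all tested genes the shares were 26.2% lower and 24.3% higher. The tryptophan-degrading enzyme IDO1 (-5.35 ± 0.27), the cytokine IL15 (-2.34 ± 0.14) and the checkpoint ligand CD274 (-2.21 ± 0.15) fell (SE; edgeR adjusted p = 9.35e-13, 9.23e-12 and 1.40e-10). The actin-bundling gene FSCN1 rose by 0.83 ± 0.08 (1.08e-08). BIRC3 and EBI3 were at 0.28 ± 0.10 and 0.25 ± 0.08. The BIRC3 call ended without miR-122-5p library 6 (edgeR adjusted p = 0.0574). With all libraries kept, the alternative settings put BIRC3 at 0.28 to 0.79. EBI3 turned to -0.07 without the GC and length trends (0.563), and its call also ended under the GC slope covariate (0.120).

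**Figure D3:**
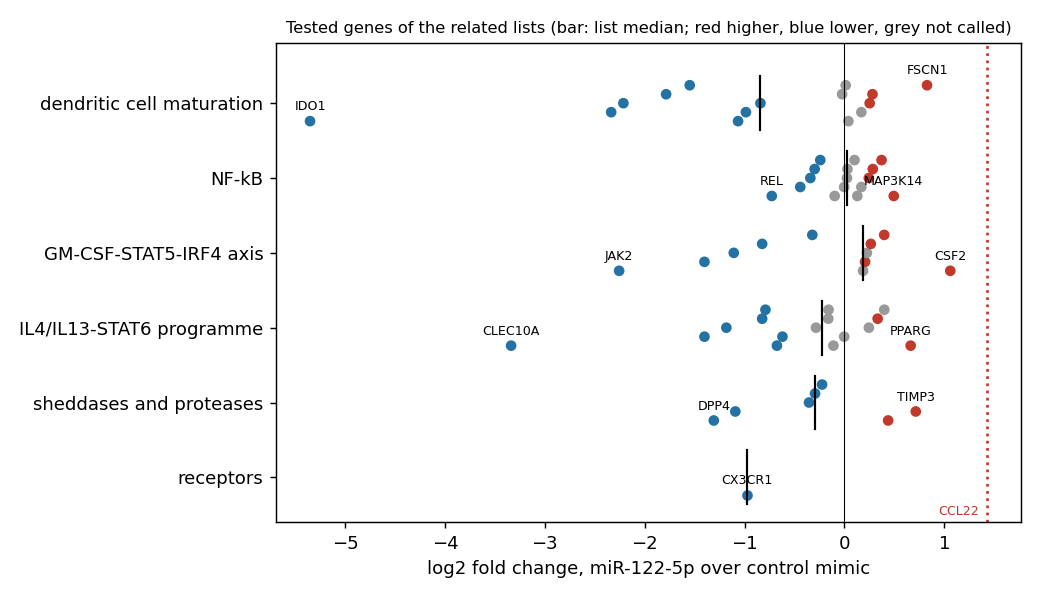
Log2 fold change (miR-122-5p over control, edgeR) of every tested gene in 6 lists related to the 3 chemokines; black bars are list medians, the dotted line is CCL22, and the gene at each end is named. In this fit CCL22 (1.42) lies above every tested gene of these lists, the highest of which is CSF2 (1.06). Alternative settings that kept all libraries put CSF2 at 0.99 to 1.57 and CCL22 at 1.33 to 1.46, so this order depends on the setting.

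On chromosome 16 the surrounding genes went in both directions. Within 500 kb of the span from CCL22 to CCL17 there are 44 other annotated genes, of which 22 were tested; 6 were higher, 2 lower and 14 not called (median 0.09). The number higher is near the 24.3% of all tested genes, and 26.2% of those were lower. The nearest tested gene after the cluster, CIAPIN1, was at 0.007 ± 0.071 (SE; edgeR adjusted p = 0.939) with 39.1 ± 2.26 against 38.9 ± 2.64 CPM (SD, n = 6). The next, the coenzyme Q gene COQ9, was at 0.21 ± 0.08 (adjusted p = 0.0308); its call ended without miR-122-5p library 1, 2, 3 or 4 or control library 3 or 6 (0.0503 to 0.0703), without the filter (0.0563), with the replicate number as a block (0.0524) and with the GC slope covariate (0.649), and its lowest adjusted p over all settings was 0.000961. Before the cluster the nearest tested gene was PLLP (-0.01 ± 0.25, adjusted p = 0.975), and then ARL2BP (2.23 ± 0.43, adjusted p = 0.000177), which is uncertain because other genes overlap 84.5% of its exons and because it had 1.00 ± 0.358 against 0.211 ± 0.157 CPM.

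Farther out, the kinesin KIFC3 and the adhesion receptor ADGRG1 rose by 0.60 ± 0.09 and 0.45 ± 0.08 (SE; edgeR adjusted p = 9.88e-06 and 9.07e-05). NLRC5, the transactivator of MHC class I genes, fell by 0.80 ± 0.07 (1.09e-08), from 178.5 ± 18.3 to 102.8 ± 5.86 CPM (SD, n = 6), and RSPRY1, also lower, was at -0.52 ± 0.08 (1.78e-05). With the GC slope covariate 0 of these neighbours were called higher and 1 lower, where 7.22% and 12.2% of all tested genes were. The calls of ARL2BP (0.85, adjusted p = 0.488), KIFC3 (0.12, 0.463), ADGRG1 (0.24, 0.236) and RSPRY1 (-0.29, 0.119) ended. Under the same covariate CCL22 was at 1.33 ± 0.13 (adjusted p = 2.14e-07), and after the GC and length correction at 1.37 ± 0.07 (3.90e-13).

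**Figure D4:**
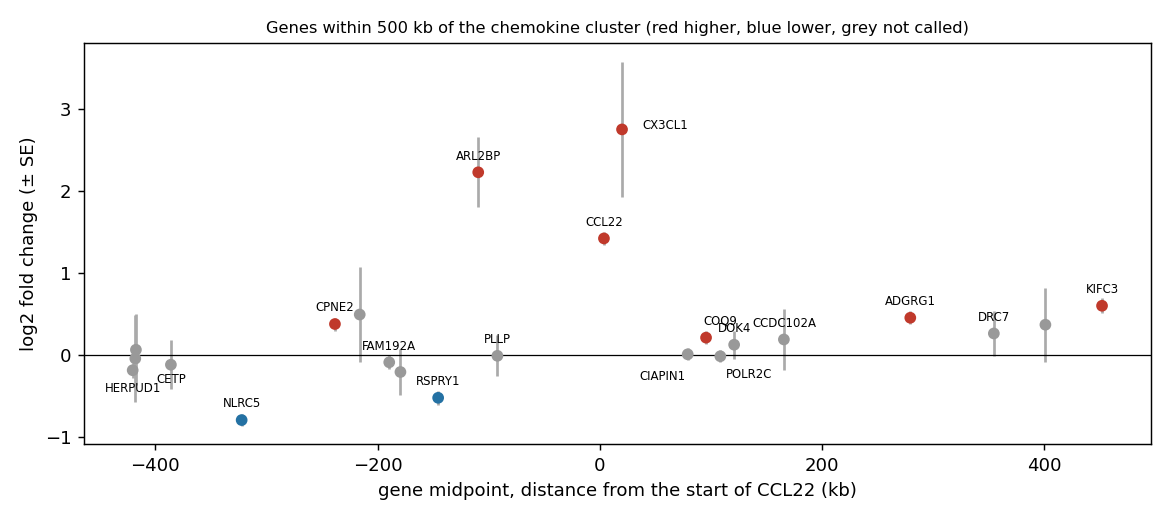
Log2 fold change (miR-122-5p over control, ± SE, edgeR) of the tested genes within 500 kb of the chemokine cluster, except 1 that is not reported here, against the distance of its midpoint from the start of CCL22; protein-coding genes are named. CCL22 (1.42) and CX3CL1 (2.76) stand above their nearest neighbours CIAPIN1 (0.007) and PLLP (-0.01), while ARL2BP (2.23) has overlapping exons. CX3CL1 passed the low-count filter mainly through the miR-122-5p libraries.

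Across the series, library totals ran from 29473750 to 39468157 gene counts. Control library 6 had 19298 genes with a count, against 20545 to 21611 in the other 11. The slope of log2 CPM on transcript GC content, relative to the mean over libraries and per 10 percentage points, was 0.0336 to 0.229 in the miR-122-5p libraries and -0.318 to 0.0119 in the controls, without overlap, so a GC trend and the treatment cannot be fully told apart. Of 12 monocyte and macrophage markers 10 passed the filter, led by TYROBP, CSF1R and ITGAM. Of these 10, 5 were called lower and 2 higher, where 26.2% and 24.3% of all tested genes were. The lower ones had log2 fold changes of -2.29 for MSR1, -0.81 for CD163, -0.47 for AIF1, -0.39 for CD14 and -0.36 for CSF1R. TYROBP (0.30) and ITGAM (0.19) were higher. The summed level of the 12 was 2108 to 2626 CPM with miR-122-5p and 1986 to 2386 with control. CD68, whose exons other genes overlap over 85.8%, was at 0.239 and 0.216 CPM. Marker lists of the other cells known to make these chemokines were low. Summed levels of 8 dendritic cell markers were 30.9 to 35.2 CPM with miR-122-5p and 19.6 to 29.7 with control, nearly all from ZBTB46 (31.1 against 22.4 CPM), while CLEC9A had 8 counts and CD207 11 in all libraries together. The 5 endothelial markers summed to 12.3 to 18.2 against 9.06 to 12.3 CPM, mostly VWF, with CDH5 at 0.0196 and 0.0690. The 5 epithelial markers summed to at most 0.312 CPM in any library. The 6 T cell markers summed to 20.1 to 29.4 CPM with miR-122-5p and 19.3 to 24.1 with control. Only TRAC among them was tested, and it was called higher (0.25), while CD3D, CD3E and CD2 had 0 counts. Dendritic and endothelial sums were higher with miR-122-5p, without overlap between the groups, while the ranges of the T cell sum overlapped. The endothelial groups almost touched, with a lowest miR-122-5p sum of 12.313 and a highest control sum of 12.299 CPM. For 13.4% of all tested genes every miR-122-5p library was above every control. Any part of dendritic, endothelial or T cells in the rise of CCL22 was not tested.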

How the data were processed

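Per the labels' protocols, Trizol RNA (1 µg a library) entered an NEBNext Ultra RNA kit. The authors deposited raw read counts per gene for 12 libraries; HISAT2 2.0.5, featureCounts 1.5.0-p3 and hg38 are named in the submitters' processing notes, while their strand and pair settings are not stated there. Columns were assigned by name and number; the control columns are named nc. All 58735 identifiers were found in GENCODE 29.

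In R 4.3.3, filterByExpr kept 15471 genes, and edgeR 4.0.16 (TMM, quasi-likelihood test, Benjamini-Hochberg over all tested genes, threshold 0.05) compared the groups; 28537 genes had 0 counts. The standard error is the fold change divided by the root of F. Exact tests used all 924 arrangements of 6 and 6 libraries. The scripts were tested on simulated data. Alternatives were DESeq2 1.42.0, limma 3.58.1 (voom), other scalings, filters and windows, the replicate number as a block, corrections for GC content and length (splines with 4 degrees of freedom), each library left out, and halved counts.

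The members and lists were chosen with earlier results of these data known. Named genes are all tested receptors and proteases, up to 3 genes of smallest p per direction in each other list and among neighbours, the 2 nearest neighbours on each side and the 3 genes most alike in pattern; others are said to be chosen after their values were seen. A neighbour that the rule names is not reported here. RefSeq promoters were matched for CCL22; CCL17 and CX3CL1 were not matched. The floor of 3 counts for a count of 0 covers counting error only.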

Additional observations from a re-analysis of the deposited data

Results flagged for a closer look

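In 118 groups of 6 libraries (the 3 chemokines, their ratios and the named genes), 10 held a library set apart by a gap that was too large a part of the group's range (Dixon's test, 95% level), where chance gives about 1 in 20. CX3CL1 in control library 3 was at 0.465 CPM, with 0 in the other controls. The log2 ratio of CCL22 to CX3CL1 in the same library was 5.52, with the next at 8.55. The log2 ratio of CCL22 to CCL17 was 8.04 in miR-122-5p library 6, with the next at 6.99. DPP4 was at 10.01 CPM in miR-122-5p library 3 (next 8.09), NLRC5 at 114.5 in library 1 (next 102.2) and TFAP4 at 1.13 in library 4 (next 0.820). IL15 and CD274 were highest in control library 1, at 34.0 and 246.9 CPM (next 25.3 and 198.3). In control library 6 PPARG was highest at 27.2 CPM (next 22.9) and PLLP lowest at 0.656 (next 1.45).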

How the results depend on the processing

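CCL22 kept its direction and call in all 22 alternatives (log2 fold change 1.33 to 1.46 with other settings, 1.39 to 1.47 with 1 library left out; adjusted p at most 2.14e-07). CX3CL1 lost its call with DESeq2 (2.72) and the GC slope covariate (1.24), and ran from 2.48 to 7.12 with 1 library left out, the high end without control library 3, where the fitted value is no bound. CX3CL1 has no value under the filter at 1 CPM. CCL17, fitted without the filter, lost its call with the GC slope covariate (1.77) and without miR-122-5p library 1 (1.69), and ran from 1.595 to 2.04 with 1 library left out. The differences in CPM stayed on the same side of the threshold. The CCL22 to CCL17 ratio ran from -0.41 to 0.12 with 1 library left out, turning without control library 4. The CCL22 to CX3CL1 ratio passed with a prior count of 0.5 (-2.71) and when miR-122-5p library 2 or control library 3 was left out (range -1.71 to -0.995), and the CCL17 to CX3CL1 ratio without control library 3 (range -1.61 to -0.75).

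After the GC and length correction the counts that moved over 1.5 times were proteases with 1 higher and 3 lower, the STAT6 programme with 1 higher and 11 lower, and NF-kB with 0 higher. With the GC slope covariate they were proteases with 1 higher and 3 lower, the STAT6 programme with 1 higher, the GM-CSF axis with 2 higher and 3 lower, NF-kB with 1 higher and 2 lower, other chemokines with 2 higher, and neighbours with 0 higher and 1 lower. Over all tested genes 23.3% were called higher and 23.5% lower after the GC and length correction. With the GC slope covariate these shares were 7.22% and 12.2%. Without the filter 1 receptor was higher, with 13% of all genes called higher. A window of 250 kb held 1 lower neighbour of 13 tested and one of 1000 kb 8 of 43, where 26.2% of all tested genes were lower.

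Signs turned after the GC and length correction for ADAM10 (0.048), KDM6B (-0.083), NFKB2 (-0.083), EBI3 (-0.068) and CIAPIN1 (-1.0e-04). PLLP, not called in any setting, turned with limma-voom (0.054), library totals (0.035), no filter (0.0078), the replicate block (0.023) and the GC and length correction (0.098), and ran from -0.16 to 0.065 with 1 library left out; CIAPIN1 ran from -0.019 to 0.035. Of 1161 values for the 53 other genes that the naming rule takes, 1095 kept direction and call. Where a call ended, the cause was not tested.

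Same-numbered libraries did not detectably deviate together (correlation across genes -0.105 to 0.066, with 1 of 6 miR-122-5p libraries correlating best with its own number). No pairing by number was thus detected, which does not exclude that same-numbered libraries were handled together. With the replicate block 7587 genes were called against 7810, 3004 with the GC slope covariate and 7242 after the GC and length correction; CCL22 was at 1.42, CX3CL1 at 3.77 and CCL17 at 1.95 with the block. Low counts limit CCL17 and CX3CL1.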
